A study of Mus musculus with 12 samples.

Results

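The genes described here are the protein-coding neighbours of Stub1 on mouse chromosome 17. Stub1 encodes CHIP, a ubiquitin ligase that binds heat shock chaperones, and it is the gene missing in the knockout cells of the series. The rule takes every protein-coding row of the expression table on chromosome 17 whose lower coordinate lies within 1 Mb of that of Stub1, without Stub1 itself and Msln. The rule gave 79 genes, 47 to the left of Stub1 and 32 to the right, of 22046 protein-coding rows and 54532 rows in all. Distances are between lower coordinates of gene rows, which are the 3′ ends of minus-strand genes such as Stub1. The question was whether genes near the knocked-out locus differed between the genotypes more often, or in another direction, than genes elsewhere, as a local or passenger effect of the knockout would show.

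RNA was sequenced from mouse embryonic fibroblasts (MEF) in 4 groups of 3 libraries. Wild-type cells were left unheated or heated for 1 hour at 43 °C, and cells labelled CHIP-KO were left unheated or heated in the same way. Libraries were made from RNA captured by its poly(A) tail. The labels do not give the strain of the mice, the Stub1 allele, how either line was made or whether a line is 1 clone. They also leave unsaid if replicate libraries stem from different cultures; p values therefore reflect the scatter among the libraries at hand, possibly technical. Values are FPKM, fragment counts divided by transcript length and library total, as the authors deposited them. Differences are log2 differences of group means on the log2(FPKM + 1) scale with their standard errors, so folds of genes near 1 FPKM are understated. A gene was called when the adjusted p of limma, a linear model fitted to all genes with Benjamini-Hochberg adjustment, was under 0.05.

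When a gene is knocked out in embryonic stem cells and the allele is bred into another strain, a stretch of chromosome around it keeps the sequence of the donor strain, and genes in that stretch can differ for that reason alone. Removing part of a gene can also alter the neighbours directly, through shared promoters, enhancers or read-through transcripts. Heat shock activates a small set of chaperone and stress genes and lowers transcription of many others. The neighbourhood of Stub1 is dense in genes and holds household genes of mitochondria, lysosomes and the secretory path beside a cluster of mast cell tryptase genes, which fibroblasts do not use.

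Promoters are printed for 4 members on which the results below turn, as 250 bases upstream of the RefSeq start on the minus strand, written 5′ to 3′ (build GRCm38.p6). Dusp1, a phosphatase of MAP kinases and an immediate early gene, had the largest rise with heat, and capitals in its promoter mark the cAMP response element TGACGTCA. Fam234a and Mcrip2 had the largest genotype differences without heat and Decr2, a peroxisomal reductase of unsaturated fatty acids, the largest after heat. In these 3, capitals mark the GC box (GGGCGG or CCGCCC) and the CCAAT box (CCAAT or ATTGG).
Dusp1 (chr17:26508473-26508722): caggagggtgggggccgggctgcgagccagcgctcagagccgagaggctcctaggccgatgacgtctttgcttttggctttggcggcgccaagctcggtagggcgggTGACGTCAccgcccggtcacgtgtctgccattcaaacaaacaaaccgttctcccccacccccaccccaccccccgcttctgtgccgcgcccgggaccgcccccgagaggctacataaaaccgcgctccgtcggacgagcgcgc
Fam234a (chr17:26244243-26244492): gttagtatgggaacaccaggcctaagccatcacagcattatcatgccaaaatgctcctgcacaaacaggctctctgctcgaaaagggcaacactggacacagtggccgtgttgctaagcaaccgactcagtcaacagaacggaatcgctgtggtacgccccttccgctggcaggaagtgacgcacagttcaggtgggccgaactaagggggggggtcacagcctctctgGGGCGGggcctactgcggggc
Mcrip2 (chr17:25868739-25868988): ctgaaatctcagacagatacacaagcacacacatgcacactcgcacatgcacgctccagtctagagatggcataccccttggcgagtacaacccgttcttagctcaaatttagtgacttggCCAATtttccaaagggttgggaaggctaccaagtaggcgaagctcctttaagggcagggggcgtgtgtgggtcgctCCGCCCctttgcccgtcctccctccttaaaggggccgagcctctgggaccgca
Decr2 (chr17:26090165-26090414): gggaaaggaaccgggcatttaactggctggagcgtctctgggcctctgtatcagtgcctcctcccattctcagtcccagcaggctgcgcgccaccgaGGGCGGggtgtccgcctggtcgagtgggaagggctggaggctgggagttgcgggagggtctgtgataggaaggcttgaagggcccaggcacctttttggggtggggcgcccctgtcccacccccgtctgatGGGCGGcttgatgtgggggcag

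RefSeq promoters, taken as 250 bases before to 50 bases after the start, were matched to 57 of the 79 members. On both strands, TGACGTCA was found in 2 of them, Rab11fip3 and Dusp1 (3.51%), beside 1.79% of 32851 promoters in the table. The heat shock element cores GAANNTTC and TTCNNGAA were found in 4 members each (7.02%), beside 7.86% and 8.52% of all promoters. The promoters of Eme2, Metrn and Rhbdl1 held the first core, as did that of the protease gene Prss34, and those of Eme2, Clcn7, Fbxl16 and Atp6v0e the second. The Dusp1 promoter held neither heat shock core. A GC box was present in 33 members (57.9%; 35.7% of all promoters) and a CCAAT box in 28 (49.1%; 37.4%). Such matches describe the letters of these windows only.

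Libraries held between 15591924 and 26954112 fragments. Stub1 (ENSMUSG00000039615, chr17:25830636-25833361, minus strand) was at 64.1, 63.4 and 57.5 FPKM in unheated wild-type libraries and 1.17, 1.02 and 0.722 in unheated CHIP-KO libraries, and after heat at 54.4, 53.8 and 57.9 and 1.17, 0.996 and 1.06. The knockout mean was 1.57% of wild type without heat and 1.94% after heat, with no overlap (exact two-sided permutation test, p = 0.1 each, the smallest that 3 against 3 can give). Libraries numbered 1 stood apart from their groups in both wild-type groups, where pairs with them had a chi-square per degree of freedom of 16.1 to 23.9 against 3.30 and 4.70 for the remaining pairs, and less so in heated CHIP-KO cells (9.42 and 15.0 against 3.21). The summed FPKM of 10 fibroblast markers was 1459 to 1868 in unheated wild-type, 1875 to 2210 in heated wild-type, 2922 to 3084 in unheated and 3271 to 3474 in heated CHIP-KO libraries; Col1a1 and Vim were high in every library, but Thy1, Dcn and Lum stayed under 0.1 FPKM in every wild-type library. The Y-linked genes Ddx3y, Eif2s3y and Kdm5d were at 0 in every wild-type library and averaged 14.1, 13.3 and 2.72 FPKM in unheated CHIP-KO cells. Uty, the other Y-linked gene listed, did not share this pattern and was present in every library. It was at 2.47 to 2.58 FPKM in unheated wild-type, 2.76 to 3.29 in heated wild-type and 2.72 to 3.35 in unheated CHIP-KO libraries. Xist reached at most 0.0260 FPKM in any library. The lines thus differ in more than Stub1, and the part of these differences in the results below cannot be told apart from that of the knockout. In bulk RNA, fewer cells of a kind and less RNA per cell cannot be told apart either.

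Of the 79 members, 51 reached 1 FPKM in at least 3 of the 12 libraries and were tested (64.6%, beside 50.0% of all protein-coding rows), and 46 of these reached it in all 12. The other 28 were low throughout, the highest value among them being 1.39 FPKM (Ccdc78). All 6 serine protease genes were untested: Prss28 and Prss29 were at 0 in all 12 libraries, and the mast cell tryptase genes Tpsab1, Tpsb2 and Tpsg1 and Prss34 had between 1 and 7 fragments each over the series. Of 8 mast cell markers, 4 were at 0 throughout (Fcer1a, Cma1, Mcpt4 and Ms4a2), and Cpa3 and Kit reached at most 0.0721 and 0.0166 FPKM. Hdc was at 0.0590 to 0.688 FPKM. Gata2 was present in every library, at means of 1.97 FPKM in unheated wild-type and 4.64 in unheated CHIP-KO cells. Tekt4, a tektin of sperm tails, was at 0 in all 12 libraries. Nme3, a nucleoside diphosphate kinase gene, was also listed at 0, but 87.1% of its exonic bases are shared with Mrps34 on the same strand, so its 0 cannot be read as a lack of transcript. Bodies of 28 of the 51 tested members, introns included, overlap a gene row on the opposite strand. The sources used here do not say whether the counting used strand, so reads of exonic bases shared by such pairs cannot be told apart. Some of the 28, among them Fam234a, Mcrip2 and Ift140, share 0 exonic bases with the opposite-strand gene in the GENCODE M21 annotation.

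Without heat, 29 of the 51 tested members differed between CHIP-KO and wild type (56.9%, beside 48.5% of all 13023 genes tested; 53.3% of tested protein-coding genes). They were split almost evenly, 14 higher (27.5%, against 23.9% of all genes) and 15 lower (29.4%, against 24.5%). The median difference was 0.0070 among members and -0.012 over all genes, and the median size regardless of sign was 0.26 against 0.24. On the log2(FPKM + 1) scale 1 member, Fam234a, passed 2-fold; by the ratio of mean FPKM Cacna1h and Mcrip2 did so too. Leaving out 1 library gave 12 to 15 higher and 9 to 16 lower members, with 12 and 9 without unheated CHIP-KO library 2 and 14 and 9 without library 3 of that group. The plot of genotype differences by position shows called genes of both signs on both sides of Stub1.

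**Figure D1:**
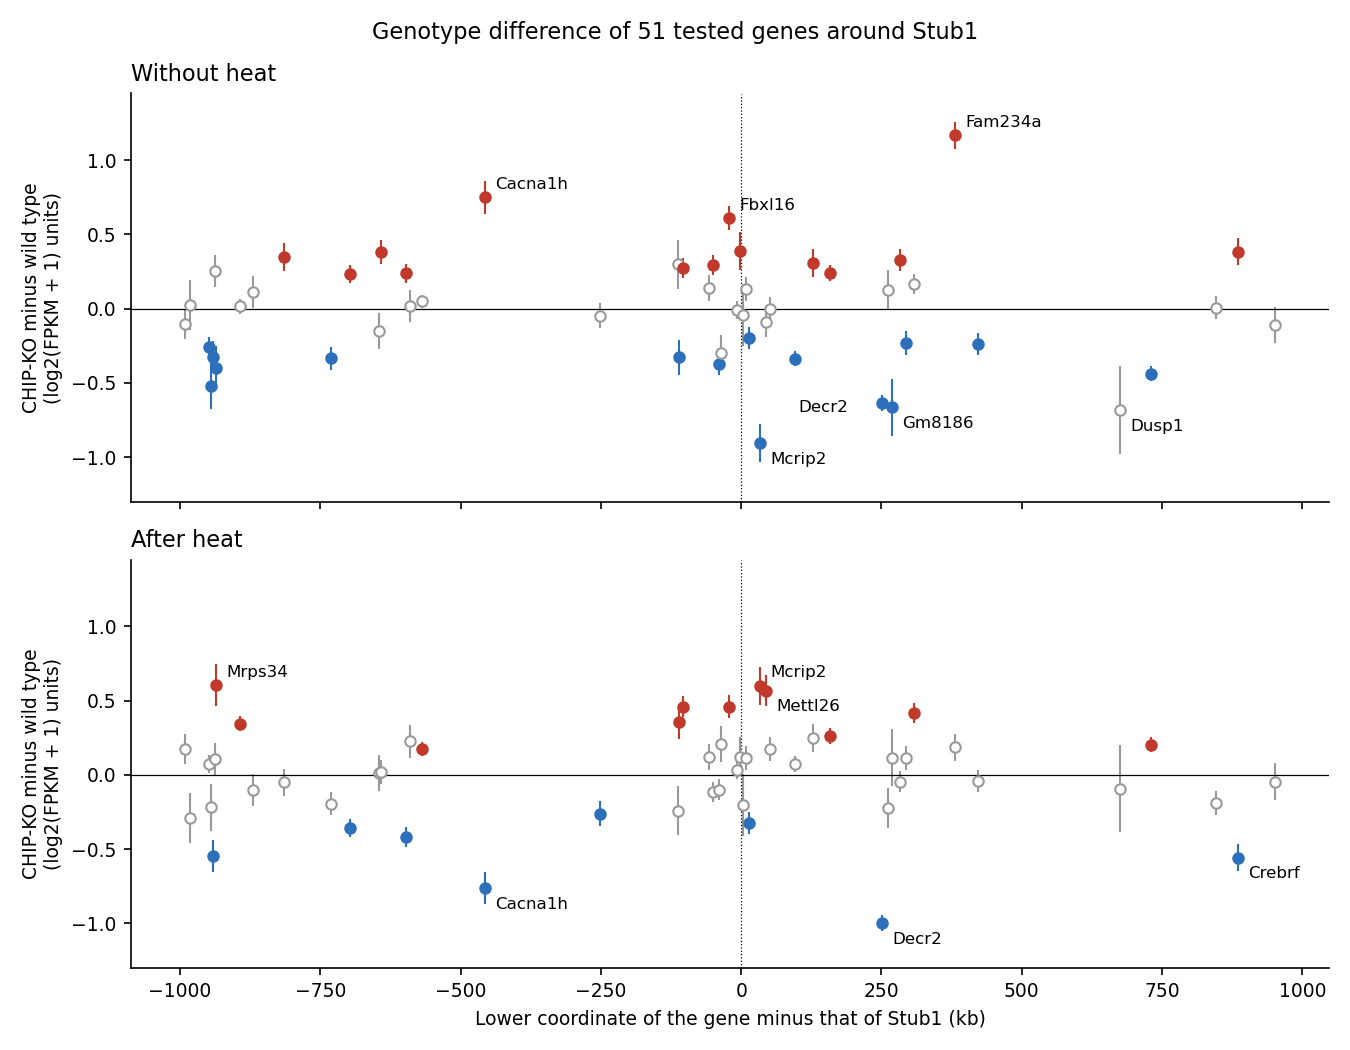
Log2 difference between CHIP-KO and wild type (y axis, log2(FPKM + 1) units, points with standard errors) of 51 tested genes against their lower coordinate minus that of Stub1 (x axis, kb), without heat (top) and after heat (bottom); red and blue points passed the limma test as higher and lower, open points did not. Higher and lower genes alternate along the window and sizes show no trend with distance in either panel.

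Fam234a (ENSMUSG00000024187, chr17:26211822-26244223, minus strand), 381 kb from Stub1, was at 25.8, 20.6 and 20.9 FPKM in unheated wild-type libraries and 49.9, 51.1 and 53.5 in unheated CHIP-KO libraries. Each knockout library lay well above each wild-type one, a difference of 1.17 ± 0.09 (2.25-fold, limma adjusted p = 1.22e-06). Cacna1h (ENSMUSG00000024112, chr17:25374285-25433783, minus strand) encodes a pore subunit of T-type calcium channels and lies 456 kb away. It measured 0.540, 0.932 and 0.979 FPKM in wild type and 1.91, 2.12 and 2.08 in CHIP-KO cells, again without overlap (0.75 ± 0.11, adjusted p = 1.82e-04). Fbxl16 (ENSMUSG00000025738, chr17:25809085-25821244, plus strand), an F-box protein gene 21.6 kb from Stub1, was at 1.77, 1.85 and 1.76 FPKM against 3.24, 3.49 and 3.06 (0.61 ± 0.08, adjusted p = 8.14e-05). Crebrf, a regulator of the CREB3 transcription factor, stood at 4.37, 4.36 and 4.14 FPKM in wild type and 5.65, 5.91 and 6.15 in CHIP-KO cells (0.38 ± 0.09, adjusted p = 0.00482). These 3 were separated between genotypes in all 6 libraries as well. Further genes called higher were Unkl (0.38), the cilium transport gene Ift140 (0.35), Tmem8 (0.33), Capn15 (0.31), a calpain family protease, and Haghl (0.29). Without unheated wild-type library 1 the difference of Capn15 was 0.20 and no longer passed (limma adjusted p = 0.0554). The Capn15 call was lost in 3 of the 12 fits that leave out 1 library (limma adjusted p up to 0.0611).

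Mcrip2 (ENSMUSG00000025732, chr17:25863698-25868738, minus strand), 33.1 kb from Stub1, had the largest difference in the lower direction. Its values were 11.6, 9.08 and 8.66 FPKM in unheated wild-type and 5.05, 4.22 and 4.91 in unheated CHIP-KO libraries, so the knockout was lower in every library (-0.90 ± 0.13, limma adjusted p = 1.43e-04). Decr2 (ENSMUSG00000036775, chr17:26081211-26090329, minus strand) was at 16.0, 15.7 and 16.7 FPKM against 10.2, 9.81 and 9.96. The spread within each of these groups of Decr2 was small beside the gap between them (-0.64 ± 0.05, adjusted p = 2.07e-06). Gm8186, a predicted gene with a single short row, measured 30.3, 23.8 and 27.8 FPKM against 20.9, 14.2 and 15.9 (-0.66 ± 0.19, adjusted p = 0.0139), a call lost without unheated CHIP-KO library 2 (adjusted p = 0.0591). Ergic1, which encodes a protein of the compartment between endoplasmic reticulum and Golgi, was at 31.0, 33.4 and 32.9 FPKM in wild type and 23.8, 23.4 and 23.7 in CHIP-KO cells. The Ergic1 groups did not overlap (-0.44 ± 0.05, adjusted p = 2.80e-05). Lower too were the lysine methyltransferase gene Fam173a (-0.37), Pigq (-0.34), which acts in the synthesis of GPI anchors, and Telo2 (-0.33), which with HSP90 stabilises kinases of the ATM and mTOR family. Spsb3 (-0.52), Mrps34 (-0.40) and Chtf18 (-0.33) were called as well, but each lost its call in between 3 and 6 of the 12 fits that leave out 1 library; Mrps34 was at -0.24 without unheated wild-type library 1. Over the whole window, 19 of the 29 calls were kept in all 12 such fits.

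After heat, 19 of the 51 members differed between the genotypes (37.3%, beside 42.4% of all genes and 46.6% of tested protein-coding genes), 11 higher (21.6%, against 23.3%) and 8 lower (15.7%, against 19.1%). Scaling the libraries to an equal sum turned this split into 8 higher and 10 lower. The median difference was 0.031 against 0.013 over all genes, and the median size 0.20 against 0.22. On the log2(FPKM + 1) scale no member was called at 2-fold or more; by the ratio of mean FPKM Decr2 was, at 47.6% of wild type. Msln, the mesothelin gene at 82.0 kb, which the rule leaves out, was at 29.7, 30.4 and 30.1 FPKM in unheated wild-type and 31.9, 30.9 and 27.6 in unheated CHIP-KO libraries, and after heat at 5.37, 5.97 and 5.33 and 31.0, 37.95 and 36.2. Its groups overlapped without heat and were far apart after it, a larger heated difference than that of any tested member (2.46 ± 0.08 in log2(FPKM + 1) units, limma adjusted p = 1.70e-09). Of the 19 calls, 16 were kept in each of the 12 fits without 1 library; the count was 30 when libraries were weighted by their quality (58.8%, beside 66.0% of all genes in that fit) and 23 without both wild-type libraries numbered 1 (45.1%, beside 49.9%).

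Decr2 had the largest difference after heat. It was at 19.0, 21.0 and 21.2 FPKM in heated wild-type libraries and 9.79, 9.37 and 9.98 in heated CHIP-KO libraries, -0.997 ± 0.05 with no overlap (limma adjusted p = 6.91e-08). Cacna1h was now lower in the knockout, at 4.84, 4.12 and 5.08 FPKM against 2.08, 2.32 and 2.64 (-0.76 ± 0.11, adjusted p = 1.99e-04). Crebrf was lower likewise, at 9.61, 7.16 and 7.10 against 5.18, 4.90 and 5.05 FPKM (-0.56 ± 0.09, adjusted p = 5.19e-04). For both genes every heated knockout library lay below every heated wild-type library. Gnptg (-0.42), a subunit of the enzyme that tags lysosomal proteins with mannose 6-phosphate, Clcn7 (-0.36), the lysosomal chloride and proton exchanger, and Wdr90 (-0.32), a protein of centrioles, were lower as well.

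On the other side, Mrps34 (ENSMUSG00000038880, chr17:24895116-24897502, plus strand), a protein of the mitochondrial ribosome, was at 6.18, 6.59 and 7.98 FPKM in heated wild-type and 11.2, 12.1 and 9.75 in heated CHIP-KO libraries (0.60 ± 0.14, limma adjusted p = 0.00548). Mcrip2 was at 2.86, 3.99 and 2.95 against 5.09, 5.04 and 6.21 FPKM (0.60 ± 0.13, adjusted p = 0.00288). In both, the knockout libraries were the higher ones without overlap, opposite to their order without heat. Mettl26 (0.57), Fbxl16 (0.46), Rpusd1 (0.46), Axin1 (0.41), the scaffold of the complex that destroys beta-catenin, Jpt2 (0.35), Rab11fip3 (0.26), an effector of the recycling GTPase Rab11, and Ergic1 (0.20) were also called higher. The Ergic1 call was lost when libraries were scaled to an equal sum (0.14, limma adjusted p = 0.0752). Chtf18 (0.36), part of an alternative loader of the DNA clamp, was called too, at 0.21 without heated wild-type library 1, where it did not pass (adjusted p = 0.0557). Its heated call was lost in 3 of the 12 fits without 1 library (limma adjusted p up to 0.0994). Fam234a, the largest difference without heat, was at 41.7, 49.9 and 45.2 FPKM in heated wild-type and 55.4, 50.0 and 50.2 in heated CHIP-KO libraries, close together and not called (0.18 ± 0.09, adjusted p = 0.124).

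**Figure D2:**
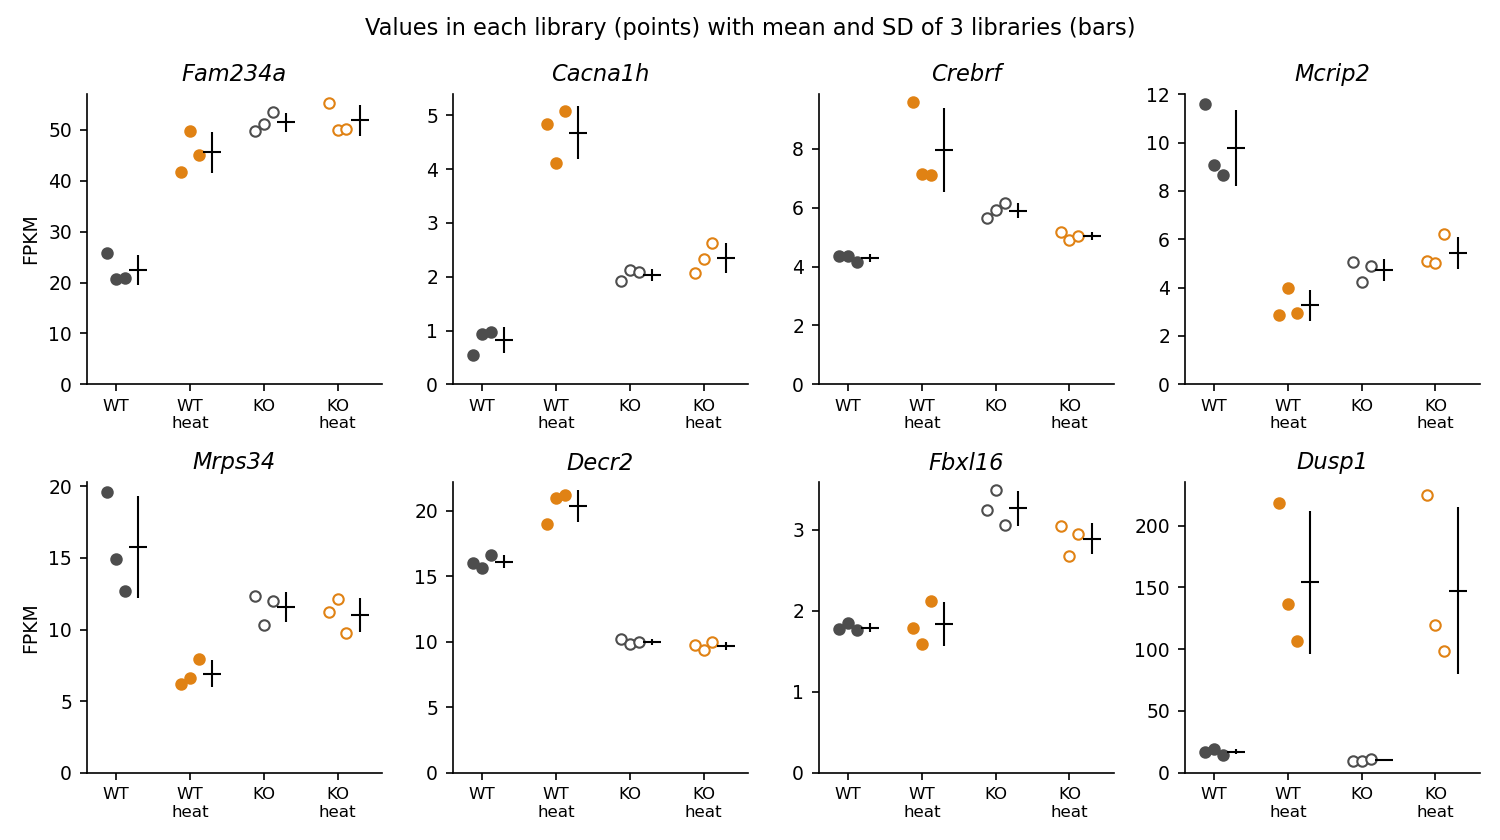
FPKM of 8 members (panels, y axis from 0) in each library of the 4 groups (points; filled wild type, open CHIP-KO; orange heated), with the mean and SD of 3 libraries as bars. Wild-type values of Fam234a, Cacna1h, Crebrf, Mcrip2 and Mrps34 move with heat while CHIP-KO values stay close to each other; Decr2 and Fbxl16 keep their order and Dusp1 rises in both genotypes.

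The genotype comparisons without and with heat use separate libraries. Called in both and in the same direction were 6 members: Fbxl16 and Rab11fip3 and Rpusd1, a pseudouridine synthase homologue, higher in the knockout, and Decr2, Wdr90 and Eme2, a partner of the MUS81 nuclease, lower. The unheated calls of Wdr90 and Eme2 were lost in 7 and 4 of the 12 fits without 1 library. Called in both but in opposite directions were 8: Cacna1h, Crebrf, Clcn7 and Gnptg were higher without heat and lower after it, and Mcrip2, Mrps34, Chtf18 and Ergic1 the reverse. The unheated calls of Chtf18 and Mrps34 were lost in 6 and 5 of the 12 fits without 1 library, and the heated call of Chtf18 in 3. The others of the 8 kept both calls in all 12 fits. A further 15 were called without heat only, 5 after heat only and 17 in neither. Over all genes, 40.4% of those called without heat were called in the same direction after heat and 14.2% in the opposite one; among members the shares were 20.7% and 27.6%. Across the 51 members the differences of both treatments had a Pearson correlation of -0.042 and a Spearman correlation of -0.032, against 0.565 and 0.328 across the 13023 genes; these describe genes of the same libraries, which are not independent replicates. The opposite count was between 6 and 8 in all 12 fits without 1 library and 7 without both wild-type libraries numbered 1. The count in the same direction ranged from 4 to 9. The genes counted as opposite changed between fits. Without both wild-type libraries numbered 1, Haghl was among them and Mrps34 and Chtf18 were not. With library weights, 10 were opposite and 11 in the same direction. Whether the window differs in this from other windows was not tested.

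**Figure D3:**
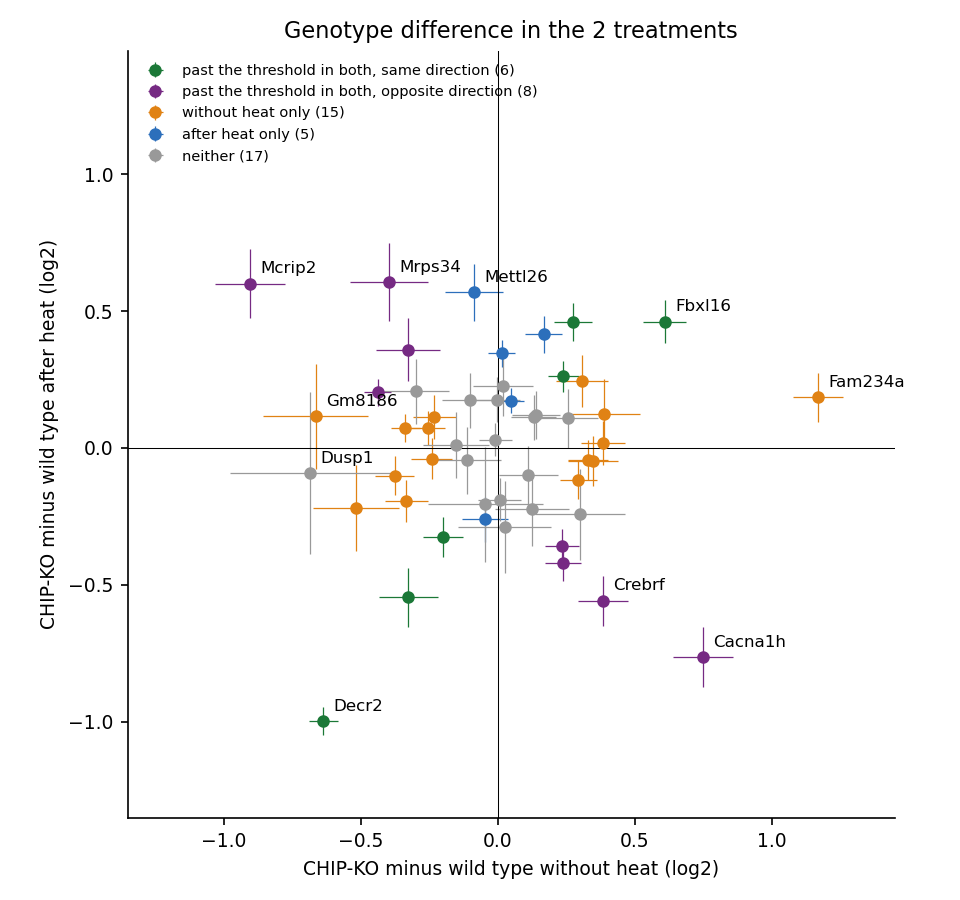
Genotype difference of each of the 51 tested members without heat (x axis) and after heat (y axis), both CHIP-KO minus wild type in log2(FPKM + 1) units with standard errors, coloured by the calls in both treatments. The 8 genes called in opposite directions lie in the upper left and lower right and the 6 called in the same direction in the other corners.

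The 10 members nearest to Stub1 were described whatever their values. Jmjd8 (ENSMUSG00000025736, chr17:25828867-25831842, plus strand), a protein of the endoplasmic reticulum, has its lower coordinate 1.77 kb from that of Stub1 and is Stub1's convergent partner: both bodies overlap at their 3′ ends by 1207 bases, and 39.3% of the exonic bases of Jmjd8 are shared with Stub1. It was at 1.04, 1.56 and 1.30 FPKM in unheated wild-type and 1.87, 2.26 and 1.88 in unheated CHIP-KO libraries, higher in every knockout library (0.39 ± 0.13, limma adjusted p = 0.0270). This call was lost without unheated wild-type library 1 (0.31, adjusted p = 0.0972), wild-type library 3 (0.39, adjusted p = 0.0570) or CHIP-KO library 2 (0.33, adjusted p = 0.0984). After heat its groups, 2.61, 1.52 and 1.86 against 2.26, 2.11 and 2.32 FPKM, overlapped (0.12, adjusted p = 0.477). Reads of the shared stretch cannot be assigned to 1 of the genes without strand, and Stub1 moved the other way, from a mean of 61.7 to 0.971 FPKM.

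Rhbdl1, a rhomboid-like protease gene 3.83 kb away on the side of the Stub1 start, was at 1.26 ± 0.494 FPKM (SD, n = 3) in unheated wild type and 1.18 ± 0.443 in unheated CHIP-KO cells, with overlapping groups (-0.04 ± 0.21, limma adjusted p = 0.886); 81.4% of its exonic bases are shared with Gm20683, which was not tested. Wdr24, a subunit of the GATOR2 complex that relays amino acid levels to mTORC1, was at 10.8 ± 0.416 and 10.7 ± 0.635 FPKM (-0.01 ± 0.06, adjusted p = 0.927). Rhot2, a mitochondrial GTPase of organelle transport, was at 7.51 ± 0.243 and 8.31 ± 0.122 FPKM (0.13 ± 0.08, adjusted p = 0.208). None of these 3 was called in either treatment. Wdr90 was lower in the knockout in both, though only just without heat (-0.20 ± 0.07, adjusted p = 0.0442, lost in 7 of the 12 fits without 1 library). Metrn, a secreted factor, was not called (-0.30 and 0.21), and Fam173a was called without heat only (-0.37 and -0.10). By GENCODE M21 exons, 48.4% of the exonic bases of Metrn are shared with the non-coding row Gm26694 on the opposite strand. That annotation gives Metrn 3771 exonic bases, beside 1434 in the deposited row. Fbxl16 and Mcrip2, described above, complete the 10.

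The size of the genotype difference showed no trend with distance from Stub1. Over all genes, 48.5% were called without heat and 42.4% after it. Among the 14 tested members within 100 kb, 7 were called without heat and 4 after it (50% and 28.6%). From 100 to 250 kb it was 4 and 3 of 5 (80% and 60%), and from 250 to 500 kb 7 and 4 of 10 (70% and 40%). From 500 kb to 1 Mb it was 11 and 8 of 22 (50% and 36.4%). The Spearman correlation between the size of the difference and the distance was -0.027 without heat and -0.063 after it across the 51 genes. To the left of Stub1, 16 of 29 were called without heat (55.2%, 9 higher and 7 lower). To the right it was 13 of 22 (59.1%, 5 higher and 8 lower). At the borders, Hagh (glyoxalase II, -0.10 and 0.17) and Fahd1 (0.03 and -0.29) lay just inside on the left, with Crebrf and the SNARE gene Bnip1 (-0.11 and -0.04) on the right. The first row outside on the right, Nkx2-5, was not tested, and the next, the kinesin gene Kifc5b, was at -0.37 and -0.09.

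Genes beyond the window were described in the same way. In the 2 Mb to the left of the window, 27 of 42 tested protein-coding genes were called without heat (17 higher, 10 lower) and 24 after it, and in the 2 Mb to the right 16 of 30 (9 higher, 7 lower) and 19. Over the rest of chromosome 17 it was 213 of 435 without heat, 156 higher and 57 lower, and 202 after it, 132 higher and 70 lower. The median difference without heat was 0.11 over the rest of the chromosome, 0.078 and 0.064 in the left and right stretches, and 0.0070 in the window. As shares, 64.3%, 53.3% and 49.0% of the left stretch, the right stretch and the rest of the chromosome were called without heat, and 57.1%, 63.3% and 46.4% after it. The window was within this range without heat and below it after heat. The plot of shares by stretch shows that, without heat, higher genes outnumbered lower ones in each other stretch of chromosome 17. Over all 11027 tested protein-coding genes, 2940 were higher and 2936 lower without heat, an even split like that of the window. The members' 14 higher and 15 lower became 15 and 14 with median-of-ratios factors, 16 and 14 with the replicate block and 16 and 12 with no filter, and the other stretches were not counted again under these settings. No test of the window against these stretches was made.

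**Figure D4:**
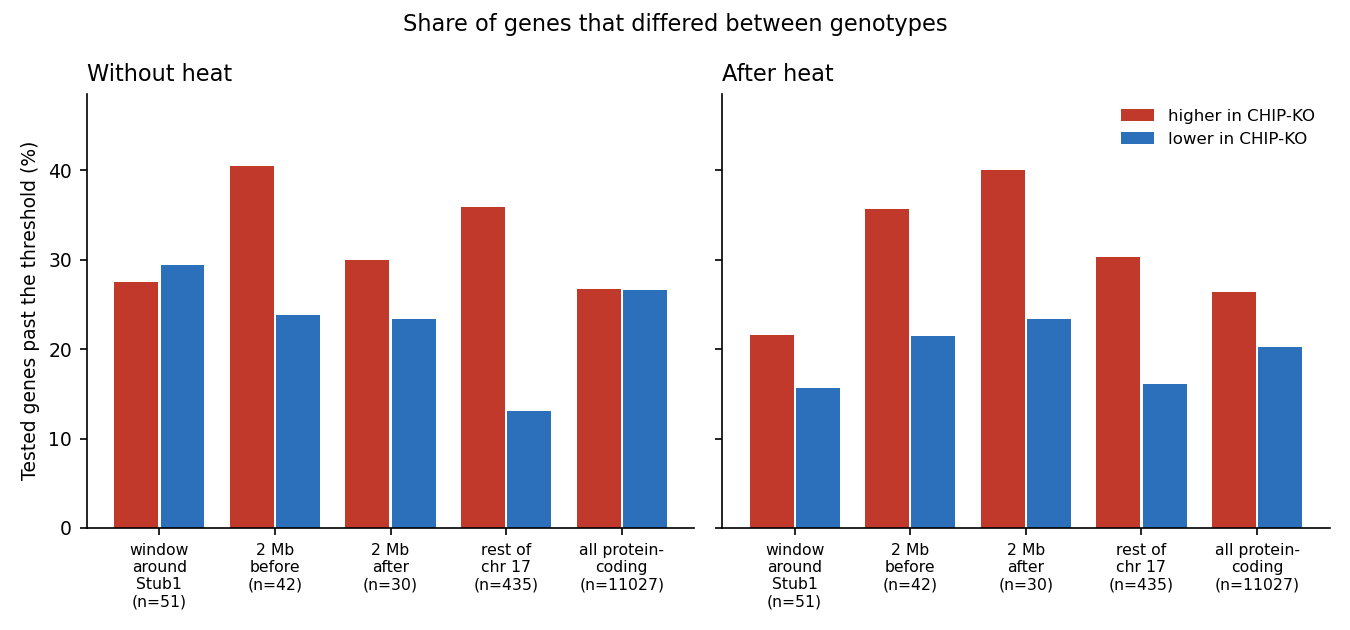
Percentage of tested genes (y axis) called higher (red) or lower (blue) in CHIP-KO than in wild type, without heat (left) and after heat (right), for the window around Stub1, the 2 Mb before and after it, the rest of chromosome 17 and all protein-coding genes; n is the number tested. Without heat the bars of the window and those of all protein-coding genes are about equal, while red exceeds blue in the other stretches of chromosome 17.

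By role, 12 of 13 members of mitochondrion and metabolism were tested, and 7 differed without heat (58.3%; 2 higher, 5 lower) and 4 after it (33.3%; 3 higher, 1 lower), beside 48.5% and 42.4% of all genes, against which each role below is read. The 5 lower ones included Mrpl28 (-0.23) and Mrps34 of the mitochondrial ribosome and Nubp2 (-0.26), which helps to build iron-sulfur clusters in the cytosol, and after heat the single lower gene was Decr2. Mcrip2 is counted in this role by the role list alone, among the 5 lower without heat and the 3 higher after it. Whether it acts there was not tested. Of 16 members of membrane traffic, lysosome and secretory path, 14 were tested; 8 differed without heat (57.1%; 6 higher, 2 lower) and 5 after it (35.7%; 2 higher, 3 lower). Clcn7, at 20.0 ± 1.51 FPKM in unheated wild-type and 23.6 ± 0.543 in unheated CHIP-KO cells (0.23), and Gnptg, at 8.23 ± 0.482 and 9.88 ± 0.267 (0.24), were among the 6. The V-ATPase subunit gene Atp6v0e, at 30.9 ± 3.83 and 30.9 ± 1.39 FPKM, was not called (0.01). Median differences of these roles without heat were -0.038 and 0.12.

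Of 8 members of nucleus, DNA repair, RNA and transcription, 7 were tested; 6 differed without heat (85.7%; 2 higher, 4 lower) and 3 after it (42.9%; 1 higher, 2 lower). The lower ones without heat were Eme2 (-0.33), Chtf18, Telo2 and the splicing gene Luc7l (-0.24). Signalling and ubiquitin held 14 members, of which 8 were tested; 2 differed in each treatment (25.0%): without heat, Capn15 higher and Spsb3, an adaptor of ubiquitin ligases, lower, and after it 2 genes higher, of which Axin1 is named above. The calls of Mrpl28 and Luc7l were lost in 4 and 2 of the 12 fits without 1 library. Dusp1 (ENSMUSG00000024190, chr17:26505590-26508519, minus strand) belongs here. It was at 17.1, 19.3 and 14.8 FPKM in unheated wild-type and 9.56, 9.86 and 11.2 in unheated CHIP-KO libraries, lower in every knockout library, yet was not called (-0.68 ± 0.29, limma adjusted p = 0.0775). Its heated libraries varied widely and shared 1 estimate of spread with the unheated ones: fitted on the unheated groups alone the adjusted p was 0.00284. After heat the Dusp1 difference was -0.09 ± 0.29 (adjusted p = 0.830) with overlapping groups.

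Heat changed 34 of the 51 members in wild-type cells (66.7%, beside 58.7% of all genes), 17 up (28.1% of all genes rose) and 17 down (30.5% fell). In CHIP-KO cells it changed 8 (15.7%, beside 20.0%), 2 up (8.65% rose) and 6 down (11.4% fell); this count was 5 without unheated CHIP-KO library 1, 2 or 3 and 17 with library weights (33.3%, beside 47.6% of all genes in that fit). Changed in wild type alone were 29 (56.9%, beside 43.4% of all genes), in CHIP-KO alone 3 (5.88%, beside 4.77%), in both in the same direction 5 (9.80%, beside 12.7%), and in neither 14 (27.5%, beside 36.6%). The difference of the changes, tested as an interaction, passed for 21 members (41.2%, beside 35.2% of all genes), 11 positive (17.9% over all genes) and 10 negative (17.3%). Of those 21, 18 were changed in wild type alone (85.7%, beside 76.1% of the interaction calls over all genes). Of the interaction calls, 16 were kept in all 12 fits without 1 library. The plot of heat changes in chromosomal order shows the wild-type points farther from 0 than the CHIP-KO points at most genes.

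**Figure D5:**
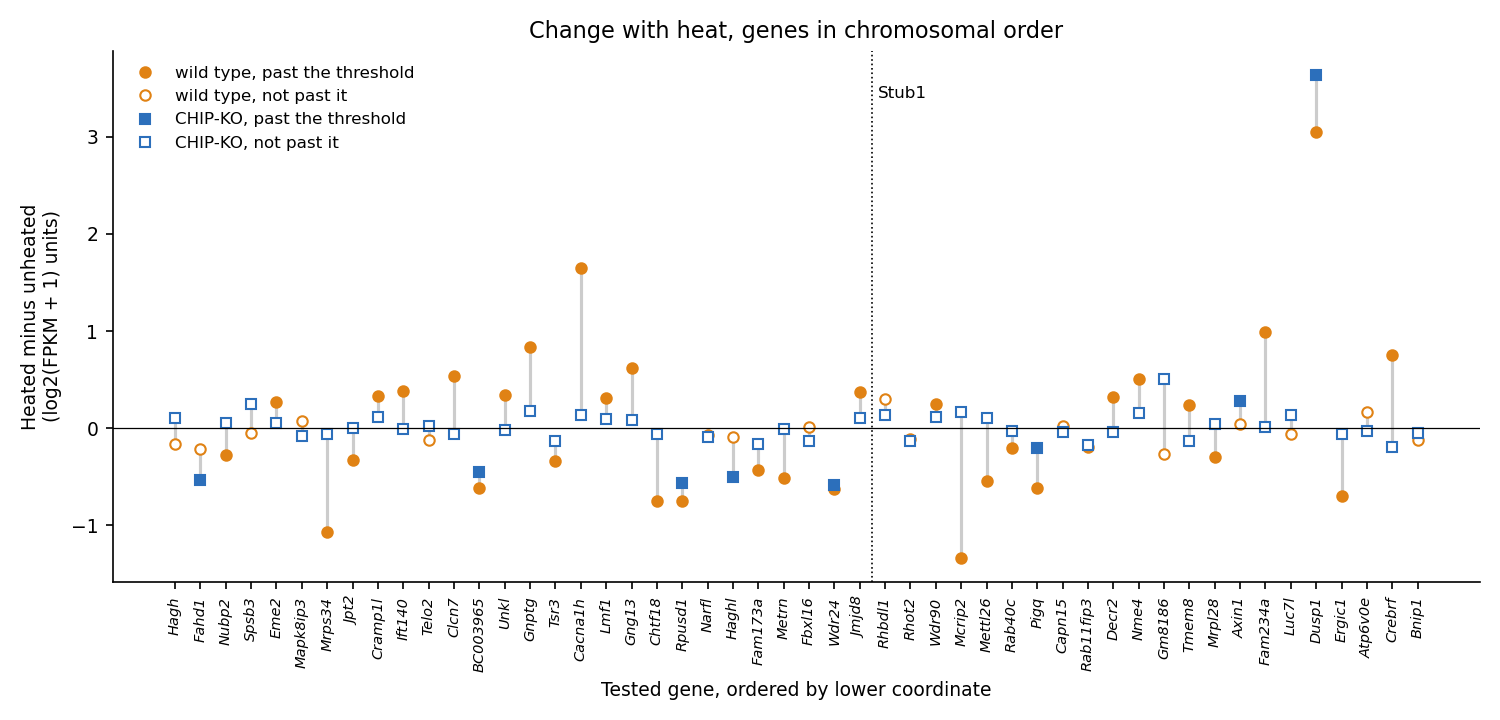
Change with heat (heated minus unheated, y axis, log2(FPKM + 1) units) of 50 of the 51 tested members in chromosomal order (x axis) in wild-type (orange circles) and CHIP-KO cells (blue squares), filled where the change passed the limma test; the dotted line marks Stub1. Dusp1 rises in both, and 29 genes have a filled circle with an open square.

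Dusp1 had the largest response. It rose from 17.1, 19.3 and 14.8 to 218, 137 and 107 FPKM in wild-type libraries (3.05 ± 0.29, limma adjusted p = 7.64e-06) and from 9.56, 9.86 and 11.2 to 224, 119 and 98.1 in CHIP-KO libraries (3.64 ± 0.29, adjusted p = 2.58e-05). Library 1 was the highest of its heated group in both genotypes. The interaction was not called (0.59 ± 0.42, adjusted p = 0.300). Cacna1h rose in wild-type cells alone, from 0.817 ± 0.241 to 4.68 ± 0.497 FPKM (1.65 ± 0.11, adjusted p = 4.76e-07), and stood at 2.04 ± 0.110 and 2.35 ± 0.280 in CHIP-KO cells (0.14 ± 0.11). Fam234a rose from 22.4 ± 2.92 to 45.6 ± 4.11 FPKM in wild type (0.99 ± 0.09) and was at 51.5 ± 1.83 and 51.9 ± 3.04 in CHIP-KO cells (0.01 ± 0.09). Fam234a in heated wild-type cells thus reached values near those of the knockout. Gnptg (0.84) and Crebrf (0.75) also rose in wild type, with 0.18 and -0.19 in CHIP-KO cells, not called.

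Mcrip2 fell from 9.78 ± 1.58 to 3.27 ± 0.630 FPKM in wild-type cells (-1.34 ± 0.13, limma adjusted p = 6.74e-06) and was at 4.73 ± 0.442 and 5.45 ± 0.665 in CHIP-KO cells (0.17 ± 0.13). Mrps34 fell in wild type by the second largest amount (-1.07 ± 0.14, adjusted p = 7.90e-05), with -0.06 ± 0.14 in CHIP-KO cells. Chtf18 (-0.75) and Ergic1 (-0.70) fell in wild type as well and were not called in CHIP-KO cells. Falls were called in both genotypes for Rpusd1 (-0.75 in wild type, -0.57 in CHIP-KO), Wdr24 (-0.62 and -0.58), Pigq (-0.62 and -0.21) and BC003965 (-0.62 and -0.45). With Dusp1 these are the 5 members changed in both. Of these, Pigq fell less in CHIP-KO than in wild-type cells (interaction 0.41, limma adjusted p = 0.0014). Called in CHIP-KO cells alone were falls of Haghl (-0.50) and Fahd1 (-0.53) and a rise of Axin1 (0.28). The falls of Fahd1 and BC003965 in CHIP-KO cells were lost in 8 and 5 of the 12 fits without 1 library, and those of Pigq and Axin1 in 4 and 1.

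Within the window, 6 pairs of members start head to head on opposite strands, at most 1000 bases apart, and 5 had both genes tested. Under heat in wild-type cells, Chtf18 and Rpusd1, 332 bases apart, fell alike (-0.75 and -0.75), and Cramp1l and Ift140, 297 bases apart, rose alike (0.33 and 0.38). Gnptg and the ribosome assembly gene Tsr3, 46 bases apart, went opposite ways (0.84 and -0.34), as did Eme2 and Mrps34, 29 bases apart (0.27 and -1.07). Nubp2 fell (-0.28) while Spsb3, 293 bases away, was not called (-0.05). The heat calls of Eme2, Tsr3 and Cramp1l were lost in 10, 3 and 2 of the 12 fits without 1 library. Between the genotypes without heat, Chtf18 (-0.33) and Rpusd1 (0.27) differed in opposite directions, and Eme2 (-0.33) and Mrps34 (-0.40) in the same one. Several of these values may rest on shared reads, since the strand setting is not given. On the opposite strand, 63.4% of the exonic bases of Mrps34 overlap Mapk8ip3 and 62.3% of those of Spsb3 overlap Eme2. Gnptg and Unkl share 1113 exonic bases. Counting only members whose bodies, introns included, overlap no gene on the opposite strand, 12 of 23 were called without heat and 10 after it. Over all genes the shares were 48.5% and 42.4%.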

How the data were processed

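The authors deposited 1 table of FPKM values per gene for the 12 libraries; HISAT2 is the aligner named, per the submitters' processing notes. For the counting tool, annotation, strand setting and versions nothing is stated (not given in the sources used here). FPKM divides by gene length and library total, so levels of long and short genes can be compared but read sharing between overlapping genes is not resolved. Whole fragments were recovered from the FPKM steps (100% of values within 0.01 of a whole number).

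The 13023 genes that reached 1 FPKM in 3 or more of 12 libraries were tested with limma 3.58.1 (R 4.3.3, trended variance) on log2(FPKM + 1) with 4 group means, and p values were adjusted by Benjamini-Hochberg over all of them; a call is an adjusted p under 0.05. Counts over members are read beside all genes; no set test was made. Errors given with ± are SD (n = 3) for FPKM and standard errors for differences. The script was tested on simulated data. Members, role lists, markers and tests were chosen with earlier results of these data known, and the GC and CCAAT boxes after the values were seen. Named genes are the 10 nearest to Stub1, up to 10 rises and 10 falls per genotype comparison (mean of at least 2 FPKM in the higher group, no overlap), up to 5 each way per heat comparison and the interaction, and role members as examples; 1 member enters the counts but is not reported by name here. Of the 79 members, 79 are in GENCODE M21 (GRCm38), 48 at identical positions. Coordinates and row lengths are those of the deposited table and promoters those of RefSeq (GRCm38.p6). Exonic bases and their sharing were counted on GENCODE M21 exons, which differ from the deposited rows for some genes. Alternatives covered pseudocount, filter, scaling, library weights, a replicate block, voom on whole fragments, the genes and groups fitted, each library left out, and the window. Same-numbered libraries were checked for pairing: correlations of their deviations were -0.120 to 0.335, with 2 of 18 over 0.1. Both were between heated wild-type and heated CHIP-KO libraries, numbered 1 (0.335) and 3 (0.231), while number 2 was at 0.021. Differently numbered heated libraries of both genotypes lay between -0.315 and 0.130. Whether numbers pair the heated libraries cannot be told from this, and the main fit used no pairing. Replicates were compared by chi-square over genes with at least 10 fragments in a pair of libraries; this minimum was changed after the values were seen, and the same libraries stood apart before the change.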

Additional observations from a re-analysis of the deposited data

Results flagged for a closer look

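In the 19 members listed first, the change with heat differed between the genotypes by a direct test of that difference. The test was the interaction term of the limma fit (Benjamini-Hochberg adjusted p under 0.05). Values are the log2 change with heat in CHIP-KO cells minus that in wild-type cells. It was positive in 9: Mcrip2 (1.51), Mrps34 (1.00), Gm8186 (0.78), Chtf18 (0.69), Mettl26 (0.65), Ergic1 (0.64), Metrn (0.50), Pigq (0.41) and Jpt2 (0.33). It was negative in 10: Cacna1h (-1.51), Fam234a (-0.98), Crebrf (-0.94), Gnptg (-0.66), Clcn7 (-0.59), Haghl (-0.41), Ift140 (-0.40), Tmem8 (-0.37), Unkl (-0.36) and Decr2 (-0.36). The calls of Gm8186, Metrn, Ift140 and Unkl were lost in 9, 8, 8 and 6 of the 12 fits without 1 library. The other 15 were kept in all 12. Nubp2 (0.33, limma adjusted p = 0.0136) and Mrpl28 (0.34, limma adjusted p = 0.0348), named above by role, passed the same test and were positive too. Nubp2 kept its call in all 12 fits, and Mrpl28 lost it in 6.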

How the results depend on the processing

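Counts of called members kept within 1.5 times under every pseudocount, filter, scaling, set of groups or genes and the voom fit that was run. Library weights gave 30 called after heat and 17 for heat in CHIP-KO cells. With 500 kb on each side of Stub1, 18 were called without heat, 11 after it, 12 in the interaction, 20 for heat in wild type and 5 for heat in CHIP-KO; with 2 Mb, 58, 42, 36, 61 and 19; without members that overlap an opposite-strand gene, 12, 10, 8, 15 and 5. These 3 sets hold fewer or more genes by construction, so their counts cannot be set against those of the window. The 500 kb set joins the distance bins of 14, 5 and 10 tested members described above. Over all genes, 48.5%, 42.4%, 35.2%, 58.7% and 20.0% were called in the same order of comparisons. No departure from these shares is read from the counts. Leaving out each library gave 21 to 31 without heat, 17 to 24 after heat, 16 to 20 for the interaction, 29 to 34 for heat in wild type and 5 to 10 for heat in CHIP-KO, and Stub1 at 1.41 to 1.78% and 1.86 to 2.01% of wild type. With the replicate number as a block, 30, 20, 19, 33 and 7 were called, though whether the numbers pair the heated libraries cannot be told. The interaction cannot be fitted on the compared groups only.

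Of single-gene results under alternatives, 2195 kept direction and side of the threshold, 102 lost the call, 24 gained one and 32 changed sign, all of genes not called. Left-out libraries gave ranges across 0 for Rhbdl1 (-0.22 to 0.14 without heat, -0.34 to 0.016 in the interaction, -0.041 to 0.27 for heat in CHIP-KO), Wdr24 (-0.033 to 0.037 without heat, -0.012 to 0.085 after it, -0.0065 to 0.093 in the interaction), Dusp1 after heat (-0.44 to 0.19), Rhot2 in the interaction (-0.10 to 0.058), Fbxl16 for heat in wild type (-0.056 to 0.079) and Metrn for heat in CHIP-KO (-0.081 to 0.085). Library weights turned Rhbdl1 (0.0048, interaction), Wdr24 (0.016, without heat), Dusp1 (0.13, after heat) and Rhot2 (0.0024, heat in wild type). Leaving out both wild-type libraries 1 turned Wdr24 (0.018, without heat), Dusp1 (0.19, after heat) and Rhbdl1 (0.14, interaction). Scaling by median of ratios turned Wdr24 (0.0027, without heat), quantiles turned Fbxl16 (0.056, interaction; -0.18, heat in wild type) and Rhot2 (0.0099, interaction), and an equal sum turned Wdr24 (-0.031 after heat, -0.0049 in the interaction) and Fbxl16 (-0.0088, heat in wild type). The voom fit turned Metrn (0.0095, heat in CHIP-KO). The cause of these changes was not tested. The 28 untested members were left out by the FPKM filter: they held 0 to 878 fragments each over the 12 libraries, against 221 for the tested Gng13, the lowest of the tested members, and 75 members could be fitted with no filter.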

Other observations

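The window also holds 18 non-coding rows, of which 4 were tested. The long non-coding RNA row Gm26694 (chr17:25794894-25964784, plus strand) spans Stub1 and many members. By GENCODE M21 exons it shares 1826 bases with Metrn on the opposite strand. The deposited rows are 1902 bases long for Gm26694 and 1434 for Metrn. The shared stretch in the annotation used for counting is therefore not known. Without strand, reads of shared bases cannot be told apart from those of Metrn, so the values below may hold reads of either gene. Gm26694 was at 2.44, 2.47 and 2.20 FPKM in unheated wild-type and 1.53, 1.34 and 1.38 in unheated CHIP-KO libraries (-0.48 ± 0.10, limma adjusted p = 0.00270). With heat it fell in both genotypes, to 0.726 ± 0.130 in wild type (-0.97 ± 0.10, adjusted p = 1.54e-05) and to 0.822 ± 0.236 in CHIP-KO cells (-0.42 ± 0.10, adjusted p = 0.0161), and the changes differed (0.55 ± 0.15, adjusted p = 0.0127). The row 2810468N07Rik was higher in the knockout without heat (0.56 ± 0.13, adjusted p = 0.00372) and after it (0.57 ± 0.13, adjusted p = 0.00399), at a level near 1 FPKM. Gm16580 and Gm10012 were not called between the genotypes.

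Whole chromosomes differed in the median genotype difference of their tested protein-coding genes, members left out. Without heat, chromosomes 4, 10, 16, 13, 1 and 15 had medians of -0.13, -0.13, -0.14, -0.15, -0.17 and -0.24, while the other 14 lay between -0.0081 and 0.12. On chromosome 15, 51.2% of 455 genes were lower in the knockout and 17.1% higher. After heat, in separate libraries, the same 6 chromosomes again had the lowest medians, from -0.19 to -0.077, and the others lay between 0.031 and 0.17. Chromosome 6 was the highest in both (0.12 and 0.17). Chromosome 17 was the second highest without heat (0.10; 35.9% of 507 genes higher, 14.6% lower) and the sixth after it (0.083). Along chromosome 17 the medians without heat were between 0.062 and 0.16 in each stretch of 10 Mb with at least 20 genes. No DNA data were used here, and the cause was not tested.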
